A study of Mus musculus with 24 samples.

Results

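The cytosolic ribosomal protein genes encode the proteins that are assembled with ribosomal RNA into the large and small subunits of the ribosome of the cytosol. Members were taken by gene name among protein-coding genes of the mouse: Rpl or Rps followed by a number, with an optional a, x or l, together with Rplp0, Rplp1, Rplp2 and Rpsa. The rule found 82 genes among the 41388 genes with counts per library, 50 of the large subunit and 32 of the small subunit. Of these, 81 had enough counts to be tested, and Rpl10l, a copy of Rpl10 used in the male germ line of the mouse, had 0 counts in every library.

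The genes were measured by total RNA sequencing of inguinal white fat, the subcutaneous pad of the groin, in 24 libraries from male mice. All mice carried floxed alleles of Nr3c2, which encodes the mineralocorticoid receptor. FMRKO mice also carried Cre recombinase under the adiponectin (Adipoq) promoter, which is active in fat cells and leaves the gene intact in other cells of the pad, and control mice carried no Cre. The 6 groups of 4 libraries were corticosterone FMRKO, corticosterone control, high-fat diet FMRKO, high-fat diet control, chow FMRKO and chow control. The sources used here give no dose or duration for corticosterone, no make-up or length for the diet, no age and no vehicle group, and chow was taken as the baseline of each treatment. Every chow title, 8 in all, has a number in front of its group name and none of the other 16 does; if this marks a batch, it cannot be told apart from either treatment. Whether each library is a separate mouse is not stated, and a p-value here measures only the spread among libraries.

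Ribosomal proteins are made in near equal numbers because each ribosome holds, with few exceptions, a single copy of each. Their mRNAs begin with a run of pyrimidines at the cap, the 5' terminal oligopyrimidine (TOP) motif, through which the kinase mTORC1 and the RNA-binding protein LARP1 set how much of each mRNA is translated. A few members are paralogues that replace or accompany a common protein in some tissues, such as Rpl3l in striated muscle and Rpl39l in male germ cells of the mouse.

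Total counts ran from 17925109 to 40427675 per library. Nr3c2, the targeted gene, averaged 10.6 ± 2.01 CPM (the read count relative to the TMM-scaled library total; SD, n = 4) in corticosterone FMRKO and 16.7 ± 2.02 in corticosterone control, 14.5 ± 1.35 in high-fat diet FMRKO and 20.8 ± 2.95 in high-fat diet control, and 19.2 ± 6.23 in chow FMRKO and 23.5 ± 4.56 in chow control, with overlapping ranges on chow. The pad of this region encloses a lymph node, and 4 libraries stood apart by a list of 19 lymphocyte and lymph node markers. The mean log2 CPM of the list was 3.75 in high-fat diet FMRKO library 4, 4.10 in high-fat diet control library 4, 4.22 in chow FMRKO library 1 and 3.49 in chow FMRKO library 3. The other 20 libraries lay between -2.07 and 2.74. Summed over the list, these markers ran from 6.29 to 93.0 CPM in corticosterone FMRKO, 7.27 to 7.76 in corticosterone control, 21.9 to 721 in high-fat diet FMRKO, 40.7 to 1136 in high-fat diet control, 22.0 to 1147 in chow FMRKO and 22.1 to 25.8 in chow control, and 10 of the 21 genes under these symbols were at 0 in at least 1 library. Skeletal muscle genes summed to 15250 CPM in chow FMRKO library 5 and 2207 CPM in corticosterone control library 2. Fat cell markers were high in every library, with a mean log2 CPM between 9.85 and 11.13.

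Together the members took 1.196% to 2.28% of the counts of a library. In bulk tissue, fewer cells of a type and less RNA per cell cannot be told apart. The summed level was 15800, 16570, 15800 and 15280 CPM in the corticosterone FMRKO group, against 14980, 15830, 16260 and 18340 CPM in the corticosterone control group. It was 15140, 14080, 14420 and 20430 CPM in high-fat diet FMRKO, and 14590, 14520, 13140 and 19110 CPM in high-fat diet control. On chow it was 18450, 12660, 16410 and 11260 CPM in FMRKO, against 12460, 13220, 12790 and 12240 CPM in control. The 4 libraries richest in lymph node transcripts held the highest sum of their group, and in both high-fat diet groups the rest lay below every corticosterone library of the same genotype. Every corticosterone control and every high-fat diet control library but 1, library 3 at 13140 CPM, lay above all 4 chow control libraries. As a percentage of counts this separation was lost. Chow control took 1.291% to 1.513% and corticosterone control 1.401% to 1.735%. High-fat diet control libraries 2 and 3 took 1.242% and 1.196%, below every chow control library, and libraries 1 and 4 took 1.341% and 2.113%. The sums of the corticosterone FMRKO and chow FMRKO groups overlapped, and they did not overlap once chow FMRKO libraries 1 and 3 were set aside.

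**Figure D1:**
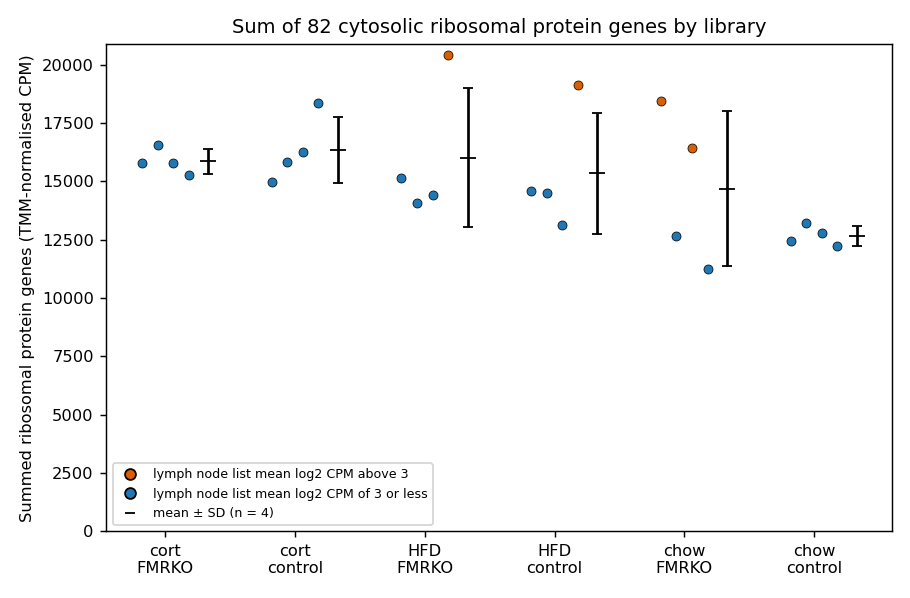
Sum of the 82 cytosolic ribosomal protein genes in TMM-normalised CPM (vertical axis) in each of 24 libraries, by group, with mean and SD (n = 4). The 4 orange points, libraries with a lymph node list mean log2 CPM above 3, are the highest of their groups at 16410 to 20430 CPM.

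Per length the members spanned a wide range. Levels per kilobase of exon (CPM per kb, exons of all isoforms merged) had a median of 114 over the 81 genes with counts, and 45 of them were above 100. The highest was Rplp1, a protein of the stalk that recruits translation factors, at 997 CPM per kb, followed by Rps12 at 680, Rps26 at 572, Rpl41 at 547 and Rps15 at 476. The 5 lowest with counts were Rpl22l1 at 15.0, Rpl7l1 at 13.9, Rpl39l at 2.58, Rpl3l at 0.814 and Rpl24 at 0.535, and 4 of these are paralogues. Rpl24, a common protein of the large subunit, had only 6 to 32 counts per library, and 47.0% of its exonic length is covered on the same strand by the gene model Gm28037. Its low level is uncertain, since the sources used here do not give the authors' treatment of reads shared by genes. Exons of another gene covered part of 27 members in all, and more than 50% of Rpl35 and Rpl23a, whose overlap is almost wholly on the opposite strand.

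**Figure D2:**
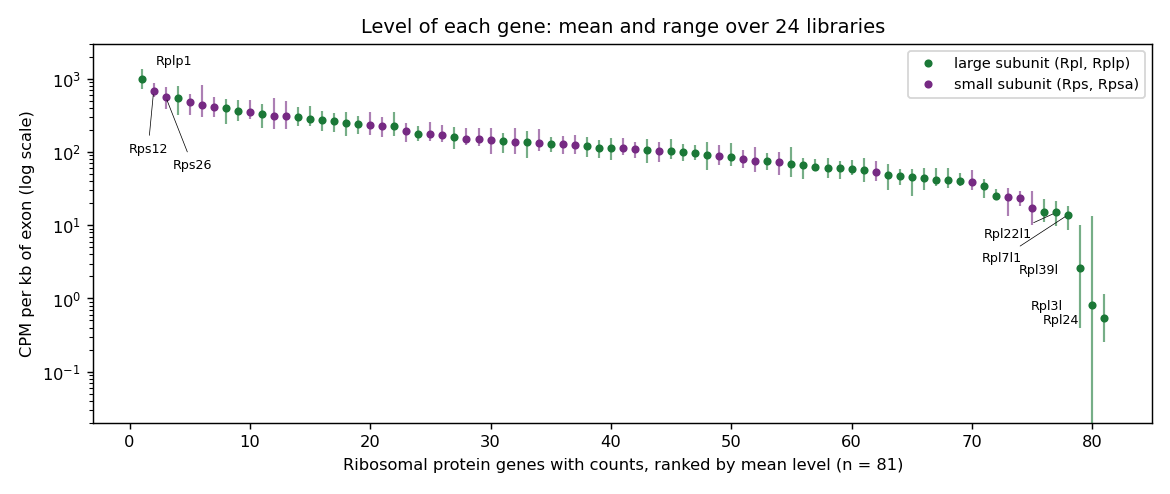
Mean level (points) and range over 24 libraries (lines) of the 81 members with counts, ranked, in CPM per kb of exon on a log scale, by subunit. Of the 81 members, 78 lie above 10, and Rpl39l, Rpl3l and Rpl24 lie below; the line of Rpl3l meets the lower edge because 1 library had 0 counts.

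The spread within groups was measured next. The median SD of log2 CPM within groups was 0.214 for the members, against 0.317 for all genes tested and 0.184 for 1756 genes within 2-fold of the members' median level. Without the 4 libraries richest in lymph node transcripts it was 0.104 for the members and 0.275 for all genes. Rps27, a zinc-binding protein of the small subunit, was among the members with the larger spread. It had 189 CPM in high-fat diet FMRKO library 4, 186 CPM in high-fat diet control library 4, and 207 and 178 CPM in chow FMRKO libraries 1 and 3. In the other 20 libraries it ran from 76.2 to 124 CPM, so the 4 did not overlap the rest.

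Corticosterone, the main glucocorticoid of the mouse, was set against chow within each genotype. In FMRKO fat 12 of 81 members rose and 1, Rpl3l, fell by edgeR's quasi-likelihood test (adjusted p under 0.05, Benjamini-Hochberg over 19717 genes). That is 14.8% of the members, against 20.2% of all genes called higher and 20.9% called lower (41.1% in either direction). In control fat 42 members rose and none fell, 51.9% of the members, against 20.2% of all genes called higher and 22.7% called lower (42.9% in either direction). The median log2 fold change of the members was 0.10 in FMRKO and 0.38 in control fat, against -0.11 and -0.12 for all genes. By subunit, 10 of 49 large-subunit and 2 of 32 small-subunit members rose in FMRKO fat, and 30 of 49 and 12 of 32 in control fat.

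The members with the largest rises in control fat were Rpl22l1, Rpl27, Rpl41, Rpl37, Rpl39 and Rpl7l1. Rpl27, a large-subunit protein, had 154, 151, 161 and 180 CPM in corticosterone control against 103, 89.6, 88.7 and 86.3 CPM in chow control, with no overlap, a log2 fold change of 0.81 ± 0.14 (SE, adjusted p = 0.000142). Rpl37 had 117 to 150 CPM in corticosterone control against 72.6 to 91.9 CPM in chow control (0.71 ± 0.16, adjusted p = 0.00117). In all, 11 members in FMRKO fat and 57 in control fat were higher in every corticosterone library than in every chow library, against 20.2% and 19.7% of all genes. In FMRKO fat the largest rises were those of Rpl7l1, Rpl41, Rps27l, Rpl36, Rpl22l1 and Rpl39, at log2 fold changes of 0.49 to 0.72.

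The counts were larger when the 4 libraries rich in lymph node transcripts were left out. Chow FMRKO then held only libraries 2 and 5. Library 5 had 15250 CPM of skeletal muscle genes and the lowest sum of members, 11260 CPM. In this fit 15 of 16 muscle markers tested fell with corticosterone in FMRKO fat. Without the 4 libraries, 56 members rose and 1, Rpl3l, fell in FMRKO fat and 62 rose in control fat, which is 69.1% and 76.5% of the members called higher, against 17.2% and 22.5% of all genes called higher. The medians were then 0.43 and 0.39, and 51 genes rose in both genotypes, which is 91.1% of the FMRKO list and 82.3% of the control list. With all libraries, 11 genes rose in both, 91.7% of the FMRKO list and 26.2% of the control list. The share of all genes called higher in both genotypes was not counted. Leaving out chow FMRKO library 1 alone gave 29 members in FMRKO fat in place of 12. Marker lists also moved with corticosterone. In FMRKO fat 9 of 18 lymph node markers and 13 of 15 muscle markers tested fell, and in control fat 2 muscle markers rose. All 5 genes of an erythrocyte list and 5 of 10 fat cell markers rose in each genotype, and 9 of 13 macrophage markers rose in FMRKO and none in control fat. Without the 4 libraries, 4 fat cell markers rose and 1 fell in FMRKO fat, and 6 rose and 1 fell in control fat. With libraries scaled by total counts alone, 4 rose and 1 fell in each genotype. The part of these lists in the result was not tested.

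Scaling set how many members passed. With libraries scaled by total counts alone, 3 members rose and 6 fell in FMRKO fat, against 12.2% and 33.3% of all genes, and 9 rose and none fell in control fat, against 13% and 31.6% of all genes. That scaling also moved the median of all genes, to -0.35 in FMRKO and -0.33 in control fat. Relative to the median of all genes, the members' median was 0.19 in FMRKO and 0.50 in control fat by total counts, and 0.21 and 0.50 by TMM. The direction of the members' median in FMRKO fat was therefore positive by TMM (0.10) and negative by total counts (-0.16).

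On the high-fat diet, 11 of 81 members rose and Rpl3l fell in FMRKO fat, and 24 rose and none fell in control fat. These are 13.6% and 29.6% of the members, against 15.2% and 15.3% of all genes called higher and 9.18% and 13.9% called lower. The median log2 fold change was 0.12 in FMRKO and 0.30 in control fat, against -0.06 and 0.01 for all genes. In FMRKO fat 9 of 49 large-subunit and 2 of 32 small-subunit members rose, and in control fat 18 and 6. At an unadjusted p under 0.05, 19 members passed in FMRKO fat, where 19.8% of all genes were higher and 15.4% lower, and 36 in control fat, where 21.1% of all genes were higher and 19.5% lower. Members higher in every high-fat diet library than in every chow library numbered 6 in FMRKO and 35 in control fat, against 13.5% and 11.5% of all genes.

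The largest rises on the diet in control fat were those of Rpl39l, Rpl37, Rpl22l1, Rpl27, Rpl39 and Rps27l. Rpl37, a zinc-binding protein of the large subunit, had 107 to 156 CPM in high-fat diet control against 72.6 to 91.9 CPM in chow control, without overlap (0.63 ± 0.16, adjusted p = 0.00495). Rpl27 had 133, 132, 124 and 163 CPM in high-fat diet control, above every chow control library (0.59 ± 0.14, adjusted p = 0.00405). In FMRKO fat Rpl39l, Rps27l, Rpl41, Rpl36, Rpl39 and Rps29 led, and Rps29, a zinc-binding protein of the small subunit, rose by 0.47 ± 0.17 on the log2 scale (adjusted p = 0.0422). The Rps29 call was lost in 27 of 35 alternatives, 21 of them with 1 library left out (adjusted p up to 0.541).

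Lymph node transcripts moved with these groups too. In control fat 15 of 18 lymph node markers tested rose on the diet, and in FMRKO fat none did, while 11 of 15 muscle markers fell there. Of 5 erythrocyte markers 4 rose on the diet in FMRKO and 0 in control fat, and of 10 fat cell markers 2 rose and 1 fell in each genotype. Of 13 macrophage markers 1 fell in control fat without the 4 lymph node rich libraries, and 3 fell there by total counts. In these 2 fits none rose, and none fell in FMRKO fat. The part of these lists in the result was not tested. Without the 4 libraries, 34 members rose and 1, Rpl3l, fell in FMRKO fat and 28 rose in control fat, against 12.4% and 17.2% of all genes called higher. Chow FMRKO again held only libraries 2 and 5 in this fit, and 13 of 16 muscle markers fell in FMRKO fat. The medians were then 0.24 and 0.17, and 19 genes rose in both, which is 55.9% of the FMRKO list and 67.9% of the control list. With all libraries 10 genes rose in both, 90.9% and 41.7% of the lists, and the share of all genes called higher in both was not counted. In control fat 15 members rose without chow control library 5, and also 15 without high-fat diet control library 4. In FMRKO fat 21 rose without chow FMRKO library 1, and between 4 and 7 rose without any 1 of chow FMRKO library 5, chow control library 5, high-fat diet FMRKO libraries 1, 3 and 4, high-fat diet control library 2, and corticosterone control libraries 2 and 3. By total counts 1 member rose and 3 fell in FMRKO fat, against 7.1% and 26.3% of all genes, so that the members' median was -0.18 there by total counts (all genes -0.35) and 0.12 by TMM. In control fat 2 rose by total counts, against 8.84% of all genes (median 0.12, all genes -0.18).

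**Figure D3:**
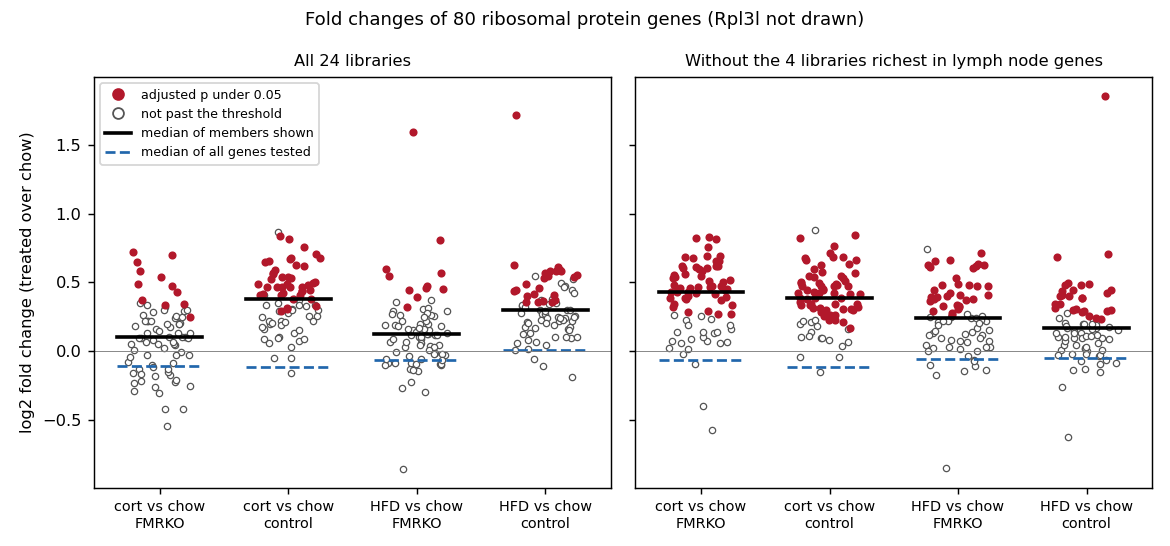
Log2 fold changes (TMM scaling) of 80 members over chow for corticosterone and high-fat diet in each genotype, with all 24 libraries (left) and without the 4 richest in lymph node transcripts (right). On the right chow FMRKO holds only libraries 2 and 5, and library 5 is the richest in muscle transcripts. Filled points passed an adjusted p of 0.05, black bars are medians of the members shown and dashed bars medians of all genes; in FMRKO fat the number of filled points is larger on the right, and by total counts the members' medians in FMRKO fat were below 0.

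The 4 comparisons with chow share chow libraries within a genotype, and 7 of 81 members rose in all of them: Rpl11, Rpl28, Rpl36, Rpl39, Rpl41, Rpl7l1 and Rps27l. Each comparison alone called 15.2% to 20.2% of all genes higher. The share of all genes called higher in all 4 was not counted, so the number 7 is not read as a result about the members. Rpl41 is the shortest ribosomal protein and lies at the join of the subunits (chr10:128548114-128549305, GRCm38, minus strand). It had 804, 787, 722 and 722 CPM in corticosterone FMRKO, 712, 769, 795 and 920 CPM in corticosterone control, 656, 690, 731 and 742 CPM in high-fat diet FMRKO, 616, 690, 608 and 612 CPM in high-fat diet control, 516, 489, 493 and 371 CPM in chow FMRKO, and 496, 488, 470 and 439 CPM in chow control. No library of a treated group overlapped a chow library. With corticosterone the log2 fold change was 0.70 ± 0.10 in FMRKO (adjusted p = 2.04e-05) and 0.75 ± 0.10 in control fat (adjusted p = 6.95e-06). On the diet it was 0.59 ± 0.10 in FMRKO (adjusted p = 0.000196) and 0.42 ± 0.10 in control fat (adjusted p = 0.00354), and by total counts both diet calls were lost (adjusted p = 0.0539 and 0.161).

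Rpl7l1 resembles Rpl7, and its yeast relative Rlp7 acts in the assembly of the large subunit (chr17:46773907-46782656, minus strand). It had 47.5, 43.6, 45.6 and 40.8 CPM in corticosterone FMRKO, 45.1, 40.7, 44.7 and 46.6 CPM in corticosterone control, 35.9, 38.1, 37.8 and 35.8 CPM in high-fat diet FMRKO, 35.6, 42.1, 36.5 and 36.7 CPM in high-fat diet control, 31.7, 28.0, 25.6 and 22.6 CPM in chow FMRKO, and 30.2, 28.5, 26.5 and 25.8 CPM in chow control. The 3 conditions did not overlap within FMRKO fat, and in control fat 1 diet library at 42.1 CPM lay within the corticosterone range. Over chow it rose with corticosterone by 0.72 ± 0.09 in FMRKO (adjusted p = 3.21e-06) and 0.67 ± 0.09 in control fat (adjusted p = 5.00e-06), and on the diet by 0.45 ± 0.09 in FMRKO (adjusted p = 0.000685) and 0.44 ± 0.09 in control fat (adjusted p = 0.000684). Of the 35 alternatives run, only total counts ended a call, on the diet in FMRKO (adjusted p = 0.272) and control fat (adjusted p = 0.0784). Its parent Rpl7 had 155 to 169 CPM in corticosterone FMRKO and 156 to 185 CPM in corticosterone control. On the diet Rpl7 had 154 to 202 CPM in FMRKO and 152 to 199 CPM in control fat, and on chow 150 to 215 and 154 to 163 CPM. Each treated group of Rpl7 overlapped its chow group.

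Rps27l is a paralogue of Rps27 and, in human cells, a target of p53 (chr9:66946086-66949516, plus strand). It had 21.7, 22.6, 22.0 and 18.3 CPM in corticosterone FMRKO, 22.6, 22.4, 22.9 and 24.1 CPM in corticosterone control, 21.7, 24.9, 25.4 and 22.6 CPM in high-fat diet FMRKO, 23.4, 26.6, 22.4 and 17.0 CPM in high-fat diet control, 12.4, 16.7, 10.9 and 14.1 CPM in chow FMRKO, and 19.0, 13.3, 14.3 and 13.1 CPM in chow control. Within a genotype, the treated and chow libraries overlapped in 1 place, where the lymph node rich diet control library at 17.0 CPM lay below the chow control library at 19.0 CPM. It rose with corticosterone by 0.65 ± 0.14 in FMRKO (adjusted p = 0.00113) and 0.62 ± 0.14 in control fat (adjusted p = 0.00125). It rose on the diet by 0.81 ± 0.14 in FMRKO (adjusted p = 0.00027) and 0.58 ± 0.14 in control fat (adjusted p = 0.00362), and all 4 calls held under each of the 35 alternatives run for them.

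The other 4 of the 7 belong to the large subunit. Rpl11 (chr4:136028265-136053428, minus strand), which with Rpl5 and 5S rRNA can bind the p53 regulator Mdm2, averaged 200 ± 10.1 CPM in corticosterone FMRKO, 202 ± 19.0 in corticosterone control, 188 ± 14.7 in high-fat diet FMRKO, 189 ± 12.8 in high-fat diet control, 144 ± 22.3 in chow FMRKO and 140 ± 6.12 in chow control (SD, n = 4). Rpl28 (chr7:4792874-4794562, plus strand) averaged 349 ± 3.40 CPM in corticosterone FMRKO, 355 ± 27.7 in corticosterone control, 324 ± 34.7 in high-fat diet FMRKO, 306 ± 23.3 in high-fat diet control, 259 ± 37.9 in chow FMRKO and 232 ± 14.3 in chow control. Rpl36 (chr17:56613395-56614243, plus strand) averaged 181 ± 7.14 CPM in corticosterone FMRKO, 190 ± 17.4 in corticosterone control, 180 ± 18.7 in high-fat diet FMRKO, 176 ± 13.5 in high-fat diet control, 121 ± 23.3 in chow FMRKO and 121 ± 15.9 in chow control. In each, every treated mean lay above both chow means. Rpl39 (chrX:37082520-37085402, minus strand), which lines the exit tunnel of the nascent chain, averaged 76.3 ± 2.17 CPM in corticosterone FMRKO, 80.6 ± 6.36 in corticosterone control, 79.5 ± 12.4 in high-fat diet FMRKO, 75.6 ± 11.02 in high-fat diet control, 54.4 ± 12.4 in chow FMRKO and 50.4 ± 2.32 in chow control. Their log2 fold changes over chow ran from 0.32 for Rpl28 on the diet in FMRKO fat (adjusted p = 0.0176) to 0.68 for Rpl39 with corticosterone in control fat (adjusted p = 0.000302). The call of Rpl28 on the diet in FMRKO fat was lost in 23 of 35 alternatives (adjusted p up to 0.887). By total counts none of these 4 genes passed with corticosterone in FMRKO fat or on the diet in either genotype. With corticosterone in control fat all 4 calls held under each of the 35 alternatives.

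**Figure D4:**
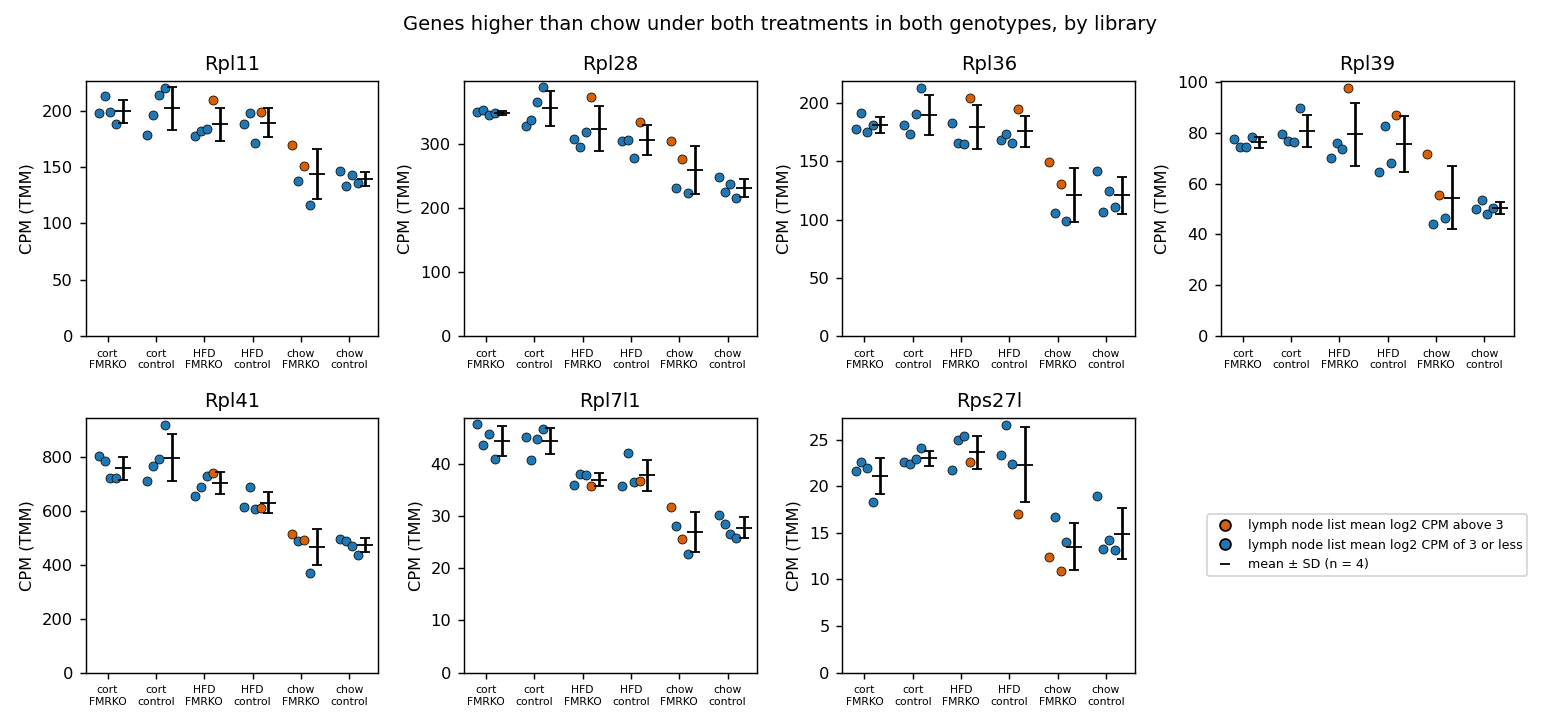
TMM-normalised CPM of the 7 members that rose in all 4 comparisons with chow, by library and group, with mean and SD (n = 4). Rpl41 in treated groups lies at 608 to 920 CPM, above every chow library at 371 to 516 CPM.

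The start regions are shown because TOP mRNAs are defined by the bases at the cap, and they are given for the 6 of the 7 genes that have an entry in the RefSeq promoter table of GRCm38.p6. Each runs from 50 bases before the annotated start to 30 bases after it, 5' to 3' on the gene's strand, and the capitals mark the longest run of pyrimidines. In Rpl41 and Rps27l other runs are of the same length, also before the annotated start, and only the first is in capitals. The regions are chr4:136053364-136053443 (Rpl11, minus), chr7:4792915-4792994 (Rpl28, plus), chrX:37085193-37085272 (Rpl39, minus), chr10:128549139-128549218 (Rpl41, minus), chr17:46782627-46782706 (Rpl7l1, minus) and chr9:66946036-66946115 (Rps27l, plus, the first of its entries).
Rpl11: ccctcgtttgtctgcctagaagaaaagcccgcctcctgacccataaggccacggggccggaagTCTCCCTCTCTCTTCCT
Rpl28: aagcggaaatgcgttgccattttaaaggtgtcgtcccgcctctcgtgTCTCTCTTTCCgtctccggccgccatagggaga
Rpl39: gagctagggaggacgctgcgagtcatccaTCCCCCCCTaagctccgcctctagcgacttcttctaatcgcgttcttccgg
Rpl41: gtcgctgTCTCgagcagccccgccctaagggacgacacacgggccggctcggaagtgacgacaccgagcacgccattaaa
Rpl7l1: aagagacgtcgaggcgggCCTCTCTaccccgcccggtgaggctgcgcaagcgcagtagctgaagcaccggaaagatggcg
Rps27l: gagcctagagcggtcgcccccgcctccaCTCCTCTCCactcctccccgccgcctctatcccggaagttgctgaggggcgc
Within the region shown, the longest run is 17 bases in Rpl11, 11 in Rpl28, 9 in Rpl39 and Rps27l, 7 in Rpl7l1 and 4 in Rpl41. In Rpl11 it reaches the last base of the region, so its full length is not known. The longest run spans the annotated start in Rpl28, lies after it in Rpl11 and lies before it in the other 4. In Rpl28 the bases at and just after the annotated start are pyrimidines, the form of a TOP motif. In the other genes shown, the longest run does not show a TOP motif at the annotated start. The annotated start need not be the start used in fat. For Rpl11, Rpl28, Rpl39 and Rpl41 the gene begins farther upstream in the coordinates deposited with the counts.

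Across the members, 63 had an entry in that table. A run of at least 8 pyrimidines in the same window was found in 63.5% of them and in 33.6% of all 27025 genes in the table. Motifs were searched on both strands of the whole 300-base region, from 250 bases before the start to 50 after. CCGGAAG, letters bound by ETS factors, was in 41.3% of the members and 9.93% of all genes, and AANATGGC, letters bound by YY1, in 20.6% and 6.96%. TATAAA was in 11.1% of the members and 15.7% of all genes. A match describes the letters and not a bound site.

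The 5 paralogues with counts did not share 1 pattern. Rpl22l1 (chr3:28805436-28807352, plus strand), whose mRNA is held down by Rpl22 protein in mouse cells, had 8.58, 9.90, 8.76 and 8.64 CPM in the corticosterone FMRKO group, against 10.3, 7.88, 10.3 and 8.00 CPM in the corticosterone control group. It had 5.66, 7.14, 6.13 and 7.97 CPM in high-fat diet FMRKO, 6.38, 10.6, 8.24 and 5.95 CPM in high-fat diet control, 6.67, 5.37, 5.79 and 6.84 CPM in chow FMRKO, and 5.30, 4.98, 5.33 and 4.80 CPM in chow control. The corticosterone libraries lay above all chow libraries of their genotype. It rose with corticosterone in FMRKO (0.54 ± 0.16, adjusted p = 0.0104) and control fat (0.84 ± 0.16, adjusted p = 0.000307), and on the diet in control fat (0.61 ± 0.16, adjusted p = 0.00689). On the diet in FMRKO fat the change was 0.13 ± 0.16 (adjusted p = 0.614), and the difference of the diet effect between genotypes was -0.48 ± 0.23 (adjusted p = 0.498). Its parent Rpl22 did not pass in any of these comparisons, with log2 fold changes of -0.03 to 0.16.

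Rpl39l, at 10 to 240 counts per library, had 2.25, 1.72, 4.15 and 3.58 CPM in high-fat diet FMRKO and 2.02, 3.798, 8.34 and 2.84 CPM in high-fat diet control. It had 0.446, 2.03, 0.323 and 1.11 CPM in chow FMRKO and 0.450, 1.33, 2.09 and 1.32 CPM in chow control, so each diet group overlapped its chow group. It rose on the diet in FMRKO (1.60 ± 0.56, adjusted p = 0.0421) and control fat (1.72 ± 0.55, adjusted p = 0.0245). These calls were lost in 17 and 5 of 35 alternatives, and without the lymph node rich libraries the value in FMRKO fat was 0.74 ± 0.64 (adjusted p = 0.442). With corticosterone it changed by 0.13 ± 0.56 in FMRKO and 0.87 ± 0.55 in control fat, and neither passed (adjusted p = 0.868 and 0.211).

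Rpl3l, the muscle paralogue of Rpl3, had 22.0 CPM in chow FMRKO library 5 and 4.02 CPM in corticosterone control library 2, the libraries richest in muscle transcripts. In the other 22 it was at most 0.799 CPM. It was called lower in FMRKO fat with corticosterone (-4.38 ± 1.46, adjusted p = 0.0209) and on the diet (-4.52 ± 1.48, adjusted p = 0.0292), and without chow FMRKO library 5 these values were 0.16 and 0.03. Its parent Rpl3 had log2 fold changes of -0.14 to 0.02 over chow, and none passed (adjusted p 0.436 to 0.942). Rps27, the parent of Rps27l, had changes of -0.42 to 0.55, and none passed with all libraries. Without the lymph node rich libraries it rose with corticosterone in control fat (0.38 ± 0.09, adjusted p = 0.0027).

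**Figure D5:**
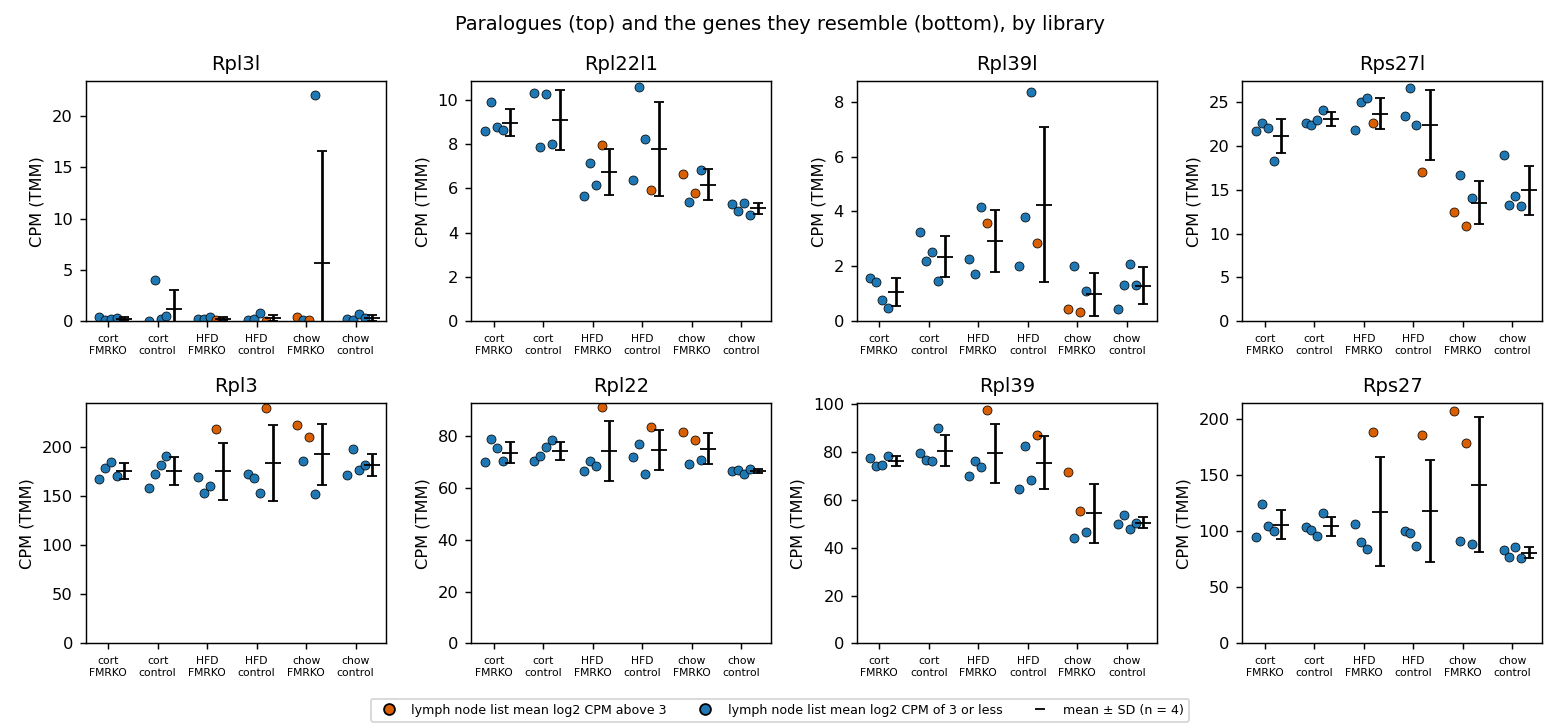
TMM-normalised CPM of 4 paralogues (top) and the genes they resemble (bottom) by library and group, with mean and SD (n = 4). Rpl3l is near 0 but for chow FMRKO library 5 at 22.0 CPM, Rps27l is higher in treated groups, and Rps27 is highest in the 4 orange libraries at 178 to 207 CPM.

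The stalk proteins and Rpsa, the small-subunit protein also known as the laminin receptor, were followed whatever their result. Rplp1 rose with corticosterone in control fat, at 486 to 632 CPM against 383 to 437 CPM on chow, without overlap (0.38 ± 0.14, adjusted p = 0.0292). In FMRKO fat it had 534 to 554 CPM against 363 to 532 CPM on chow (0.28 ± 0.14, adjusted p = 0.102). Rplp2 rose with corticosterone in FMRKO fat, at 247 to 283 CPM against 160 to 236 CPM on chow (0.37 ± 0.14, adjusted p = 0.0365), and its change in control fat was 0.09 ± 0.14 (adjusted p = 0.645). The Rplp2 call was lost in 19 of 35 alternatives, 15 of them with 1 library left out (adjusted p up to 0.594). Rplp0, a common reference gene for PCR, had changes of 0.13 ± 0.15 in FMRKO and 0.33 ± 0.15 in control fat with corticosterone, and Rpsa 0.06 ± 0.18 and 0.38 ± 0.18; none passed with all libraries (adjusted p 0.0865 to 0.794). Without the lymph node rich libraries both passed with corticosterone in each genotype, at 0.40 ± 0.10 in FMRKO and 0.33 ± 0.08 in control fat for Rplp0, and 0.39 ± 0.12 in FMRKO and 0.39 ± 0.10 in control fat for Rpsa.

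Loss of Nr3c2 in fat cells was the question of the FMRKO against control comparisons, and no member passed in any of them. The count was 0 of 81 with corticosterone, on the diet, on chow and for the mean of the 3 conditions, where 0.00507%, 0.0101%, 0.0101% and 0.0254% of all genes were called higher, and 0.0355% for the mean in either direction. At an unadjusted p under 0.05 it was 0 members with corticosterone, where 3.1% of all genes were higher and 1.17% lower, and 0 on the diet, where 2.29% were higher and 1.67% lower. It was 21 members on chow, where 6.52% of all genes were higher and 5.41% lower, and 3 for the mean, where 4.03% were higher and 2.64% lower. The median log2 fold change was -0.05 with corticosterone, 0.04 on the diet, 0.24 on chow and 0.07 for the mean. By DESeq2, 1 member passed, Rpl23a on chow (0.40, adjusted p = 0.0299), and none in the other 3. Rpl23a, at the tunnel exit, had 47.0, 36.7, 44.1 and 36.9 CPM in chow FMRKO against 32.0, 30.4, 31.5 and 33.7 CPM in chow control, without overlap, and edgeR's quasi-likelihood test gave 0.37 ± 0.08 (adjusted p = 0.285).

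On chow, 9 members were higher in every FMRKO library than in every control library, against 1.59% of all genes, and all 21 with an unadjusted p under 0.05 were higher in FMRKO, against 6.52% of all genes. Rps27 had the largest difference after Rpl3l, at 207, 91.3, 178 and 89.1 CPM in chow FMRKO against 83.6, 77.1, 86.1 and 76.2 CPM in chow control (0.81 ± 0.28, adjusted p = 0.288). Chow FMRKO libraries 1 and 3 held the lymph node transcripts. Without the 4 rich libraries, which leaves chow FMRKO libraries 2 and 5, the members' median on chow was -0.07 in place of 0.24. Again no member passed. The median lymph node marker was higher in chow FMRKO than in chow control by 4.42 on the log2 scale, with 0 of 18 past the threshold.

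No member passed in the test of the difference of the corticosterone effect or the diet effect between FMRKO and control mice, and no gene of any kind did by edgeR (0% of all genes in both). At an unadjusted p under 0.05 there were 11 members for corticosterone and 5 for the diet, all with the lower value in FMRKO fat (2.32% and 5.02% of all genes). By DESeq2 it was 0 members, with 15 and 4 at an unadjusted p under 0.05. The median difference over the members was -0.28 for corticosterone and -0.18 for the diet with all libraries, and 0.00 and 0.08 without the 4 rich libraries. The larger number of members called in control fat than in FMRKO fat was therefore not shown to be a difference between the genotypes. Leaving out any 1 library gave 0 members as well.

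Set against the diet with all 24 libraries, corticosterone moved few members. In FMRKO fat Rps2 and Rpl7l1 rose, and in control fat Rps2, Rpl10 and Rpl41, and none fell. The shares were 2.47% and 3.7% of the members, against 7.27% and 10.6% of all genes called higher and 8.49% and 14.2% called lower. Rps2 (chr17:24718116-24721929, plus strand), at the entry of the mRNA channel, had 319, 335, 289 and 303 CPM in corticosterone FMRKO against 229, 245, 249 and 283 CPM on the diet, without overlap (0.31 ± 0.10, adjusted p = 0.0347), a call lost in 8 of 35 alternatives. In control fat it had 309, 314, 327 and 394 CPM with corticosterone against 251, 255, 227 and 259 CPM on the diet, again without overlap (0.44 ± 0.10, adjusted p = 0.00275). The diet and chow groups of Rps2 did not pass against each other (-0.06 ± 0.10 in FMRKO and -0.11 ± 0.10 in control fat), and the noncoding genes Snhg9 and Snora64 overlap 8.09% of its exons.

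Rpl10, which completes the large subunit near the end of its assembly, had 301, 318, 306 and 331 CPM in corticosterone control against 222, 251, 231 and 266 CPM in high-fat diet control (0.37 ± 0.10, adjusted p = 0.0108). Without the 4 rich libraries 16 members rose in FMRKO and 27 in control fat, against 8.25% and 9.83% of all genes. In control fat 17 of 18 lymph node markers tested were lower with corticosterone than on the diet. Of 5 erythrocyte markers 3 were higher with corticosterone in FMRKO and 4 in control fat, of 10 fat cell markers 2 and 1, and of 13 macrophage markers 1 and 0; the part of these lists in the member counts was not tested. In control fat, 7 members rose without high-fat diet FMRKO library 4, 5 without high-fat diet control library 2 and 8 without high-fat diet control library 4, in place of 3. In FMRKO fat, none rose without high-fat diet FMRKO library 1 or corticosterone FMRKO library 1, and 1 without high-fat diet FMRKO library 2 or 3 or corticosterone FMRKO library 2, 3 or 4.

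Lists of genes that act with the ribosomal proteins were followed in the same comparisons. By TMM, 20.2% of all genes were called higher with corticosterone over chow in each genotype, and 20.9% in FMRKO and 22.7% in control fat lower. On the diet, FMRKO first, 15.2% and 15.3% were higher and 9.18% and 13.9% lower. By total counts, 12.2% and 13% were higher with corticosterone and 33.3% and 31.6% lower. On the diet by total counts, 7.1% and 8.84% were higher and 26.3% and 24.4% lower. The proteins of the mitochondrial ribosome, which translates the mitochondrial genome, come first. With corticosterone 63 of 76 rose in FMRKO and 66 in control fat, and on the diet 44 and 46, and none fell, beside the 15.2% to 20.2% of all genes called higher over chow; their medians were 0.60 in FMRKO and 0.59 in control fat with corticosterone, and 0.40 in each genotype on the diet. By total counts 46 rose in FMRKO and 57 in control fat with corticosterone and none fell, and on the diet 25 rose and 7 fell in FMRKO and 30 rose and 5 fell in control fat. Mrpl12 rose with corticosterone by 1.22 ± 0.15 in FMRKO fat (adjusted p = 4.26e-06) and 1.29 ± 0.15 in control fat (adjusted p = 1.76e-06). Mrps6, of its small subunit, rose on the diet by 1.43 ± 0.20 in FMRKO (adjusted p = 3.3e-05) and 1.60 ± 0.20 in control fat (adjusted p = 7.91e-06).

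Of 37 factors that assemble ribosomes, 21 rose with corticosterone and 1 fell in FMRKO fat and 20 rose and none fell in control fat, and on the diet 9 rose and 2 fell in FMRKO and 12 rose and 2 fell in control fat. By total counts 7 rose and 5 fell with corticosterone in FMRKO and 11 rose and 2 fell in control fat, and on the diet 4 rose and 12 fell in FMRKO and 5 rose and 5 fell in control fat. Ltv1, which guides the export and maturation of the small subunit, rose with corticosterone by 1.16 ± 0.12 in FMRKO and 1.32 ± 0.12 in control fat, and on the diet by 0.85 ± 0.12 in FMRKO and 1.05 ± 0.12 in control fat. Bysl, a factor of small-subunit assembly, rose with corticosterone by 1.00 ± 0.11 in FMRKO and 1.01 ± 0.11 in control fat. Of 15 genes of RNA polymerase I and its factors, which transcribe ribosomal RNA, 3 rose and 2 fell in FMRKO and 4 rose and 1 fell in control fat with corticosterone, where 20.2% of all genes were called higher in each genotype. By total counts 3 rose and 3 fell in FMRKO and 2 rose and 4 fell in control fat. Rrn3, which brings the polymerase to the promoter, rose by 0.50 ± 0.08 in FMRKO and 0.65 ± 0.08 in control fat, and Ubtf, which opens the ribosomal RNA genes, fell by 0.31 in FMRKO and 0.36 in control fat on the log2 scale.

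Translation factors and other mRNAs listed as TOP mRNAs, whose start regions were not examined here, numbered 19. Beside the counts below, 20.2% of all genes were called higher by TMM with corticosterone, and 15.2% and 15.3% on the diet. By total counts 12.2% and 13% were, and on the diet 7.1% and 8.84%. With corticosterone 10 of the 19 rose and 1 fell in FMRKO fat and 13 rose and none fell in control fat by TMM. By total counts 3 rose and 3 fell in FMRKO and 5 rose and none fell in control fat. On the diet 3 rose and 1 fell in FMRKO and 4 rose and 1 fell in control fat by TMM, and 1 rose and 6 fell in FMRKO and 1 rose and 1 fell in control fat by total counts. Eif3e, a subunit of initiation factor 3, rose with corticosterone by 0.29 ± 0.06 in FMRKO (adjusted p = 0.000763) and 0.63 ± 0.06 in control fat (adjusted p = 2.1e-07). Of the regulators around mTORC1 and LARP1, 9 of 17 rose and 1 fell in FMRKO and 7 rose and 2 fell in control fat with corticosterone. Deptor, an inhibitor of mTOR, rose by 1.13 ± 0.19 in FMRKO and 1.41 ± 0.19 in control fat, and Eif4ebp3, a repressor of cap-dependent initiation, by 2.22 ± 0.37 in FMRKO and 1.83 ± 0.36 in control fat. On the diet 5 rose and 6 fell in FMRKO and 2 rose and 4 fell in control fat. By total counts 6 rose and 4 fell in FMRKO and 5 rose and 4 fell in control fat with corticosterone, and on the diet 2 rose and 10 fell in FMRKO and 2 rose and 8 fell in control fat. Of the 4 ribosomal proteins outside the name rule, Rpl36al rose in all 4 comparisons with chow, by 0.58 to 0.75.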

How the data were processed

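Total RNA of 24 inguinal fat libraries was sequenced after removal of ribosomal RNA. Per the submitters' processing notes, the authors aligned reads with STAR 2.5.1a to GRCm38 and made the counts per gene with featureCounts 1.4.6p-5; the annotation release, strand setting and handling of reads with several matches were not stated in what was used here. The deposited CPM values (each count over the library total) and the deposited RPKM values (the same per exon length) were not used. Symbols came from GENCODE M21 and matched 97.5% of the gene IDs.

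Counts were scaled by TMM and tested with edgeR 4.0.16 (R 4.3.3): the low-count filter filterByExpr, set to a minimum of 10, left 19717 genes, and a quasi-likelihood model with 6 group means was fitted to all 24 libraries, with Benjamini-Hochberg adjustment over all genes and a threshold of 0.05. Errors beside log2 fold changes are SE. A gene that matches the name rule is not reported here. DESeq2 1.42.0, other scalings and filters, pseudogene counts added to members, libraries left out and the replicate number as a block were alternatives. Same-numbered FMRKO and control libraries deviated together on the high-fat diet (correlations 0.204 to 0.723), and not on chow (-0.283 to 0.108) or corticosterone (-0.04 to 0.077). The genes described singly were those past the threshold with the largest changes, the paralogues with their parents, the stalk proteins and Rpsa. The members and lists were chosen with earlier results of these data known. Of the remaining marker lists, 1 of 9 epithelial markers fell over chow in each control comparison and 0 in FMRKO fat, and 1 of 10 dividing-cell markers rose on the diet in FMRKO fat and 0 in the other 3 comparisons. Total counts of 17925109 to 40427675 limit the precision of low genes.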

Additional observations from a re-analysis of the deposited data

Results flagged for a closer look

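In 12 of 132 groups of 4 libraries tested, over 22 quantities, 1 library lay far from the other 3: its gap to the nearest of them, as a share of the group's range, exceeded the critical value of Dixon's test for 4 values. Chance gives this in about 1 in 20 groups. No explanation was tested.

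High-fat diet FMRKO library 4, rich in lymph node transcripts, was high for the summed members (20430 CPM against 14080 to 15140, share 0.833), Rpl10 (329.6 CPM against 251.9 to 257.6, share 0.926), Rpl22 (91.1 CPM against 66.54 to 70.09, share 0.856) and Rplp1 (673.2 CPM against 480.3 to 499.9, share 0.899). High-fat diet control library 4, also rich in them, was high for the members' percentage of counts (2.113% against 1.196% to 1.341%, share 0.842) and Rps27 (185.9 CPM against 86.95 to 100.3, share 0.865). High-fat diet control library 2 was high for Rpl41 (690.2 CPM against 608.3 to 615.9, share 0.907) and Rpl7l1 (42.09 CPM against 35.63 to 36.73, share 0.83). Corticosterone FMRKO library 2 was high for Rpl22l1 (9.895 CPM against 8.579 to 8.757, share 0.864) and Rplp0 (559.7 CPM against 512.1 to 517.0, share 0.896). Rpl3l was high in chow FMRKO library 5 (22.03 CPM against 0.1168 to 0.4184, share 0.986) and corticosterone control library 2 (4.016 CPM against 0 to 0.4705, share 0.883), the libraries richest in muscle transcripts.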

How the results depend on the processing

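All counts are of the 81 members tested. For corticosterone over chow in FMRKO fat (12 higher, 1 lower), total counts gave 3 higher and 6 lower, leaving out libraries with a lymph node list mean above 3 gave 56 higher and above 2, an alternative chosen after seeing the data, 61, and the list mean as a covariate 47. Leaving out libraries with a muscle list mean above 4 gave 2 lower, and above 2, also chosen after seeing the data, 7 higher and 2 lower; DESeq2 gave 0 lower and the replicate block 10 higher and 2 lower. In control fat (42 higher) the counts were 9 by total counts, 67 without lymph node list means above 2, 71 with the covariate and 32 with the replicate block.

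For the diet over chow in FMRKO fat (11 higher, 1 lower), total counts gave 1 higher and 3 lower, no filter 7 higher, lymph node means above 3 left out 34 higher, above 2 left out 33 higher and 0 lower, the covariate 27 higher, muscle means above 4 left out 7 higher and 0 lower, above 2 left out 4 higher and 0 lower, and DESeq2 0 lower; the replicate block gave 8 higher and 0 lower. In control fat (24 higher) total counts gave 2 and the replicate block 18. For corticosterone over the diet, FMRKO fat (2 higher) had 16, 11 and 8 higher with means above 3 out, above 2 out and the covariate, and 1 lower, Rpl39l, with the covariate and with DESeq2, and 2 higher with the replicate block. Control fat (3 higher) had 27, 22 and 56, and 5 with the replicate block. FMRKO against control on chow had 1 by DESeq2.

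Leaving out each library in turn gave 9 to 29 higher and 0 to 2 lower for corticosterone over chow in FMRKO and 31 to 46 higher in control fat, 4 to 21 higher and 0 to 3 lower for the diet in FMRKO and 15 to 31 higher in control fat, and 0 to 3 and 3 to 8 higher for corticosterone over the diet in FMRKO and control fat. On the diet in FMRKO fat 0 were lower without chow FMRKO library 5 or high-fat diet FMRKO library 1, 2 or 3, and 3 without high-fat diet FMRKO library 4. With corticosterone in FMRKO fat 2 were lower without chow FMRKO library 5 or high-fat diet FMRKO library 4, and 0 without corticosterone FMRKO library 2 or 3. Every FMRKO against control count and every difference between genotypes was 0 in these fits and with the replicate block.

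Of 96 results on single genes with 3360 alternative values, 441 lost the call and 6 reversed. With corticosterone in FMRKO fat, Rpl3l was 0.165 and 0.135 without muscle means above 4 and above 2 and 0.163 without chow FMRKO library 5 (-4.79 at the lowest with 1 library left out), and Rps2 was -0.00592 by total counts. On the diet Rpl3l was 0.0339 without muscle means above 4 and 0.0287 without chow FMRKO library 5 (-4.95 at the lowest with 1 library left out). The cause was not tested. Without the 4 lymph node rich libraries chow FMRKO holds 2 libraries, and 1 of them, library 5, is the richest in muscle transcripts. Depth limits Rpl24, Rpl39l and Rpl3l most.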
